A study of Mus musculus with 8 samples.

Results

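Transcripts of 10 carbonic anhydrase genes, Car2, Car3, Car4, Car5b, Car7, Car8, Car11, Car12, Car13 and Car14, were read on 8 one-colour Affymetrix arrays of mouse embryonic stem (ES) cells. In 4 of them the cells had received esiRNA to Ctr9, and in the other 4 esiRNA to luciferase. An esiRNA is a pool of short interfering RNAs cut from a longer double-stranded RNA, Ctr9 is a subunit of the Paf1 complex that accompanies elongating RNA polymerase II, and luciferase is no mouse transcript. Both groups have the strain label Oct4-Gip and passage 25, were transfected by lipofection and were collected on day 4. No promoter, clone or culture history behind the strain label is given in the sources used here, and no label says that the samples of a group were separate cultures, so the spread between arrays may be technical. The genes are represented by 23 of the 45037 probe sets compared, each annotated to exactly 1 gene symbol, and make up 10 of 18193 genes. The genes were chosen from the log2 probe set values of this same comparison, with its earlier results known, among them the size of the Car4 difference. Their differences between the groups are therefore given as a description, with no p-value.

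Carbonic anhydrases are zinc enzymes that interconvert carbon dioxide and water with bicarbonate and a proton. Cytosolic forms buffer the cell interior, membrane forms turn over carbon dioxide and bicarbonate at the outer surface, and mitochondrial forms supply bicarbonate to carboxylases in the matrix. A few relatives keep the fold but lack zinc-binding residues and have no such activity. In many tissues the enzymes work beside bicarbonate transporters, proton exchangers and lactate transporters.

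The labels were first set against their marker genes. In the Ctr9 esiRNA and luciferase arrays, the pluripotency factors Pou5f1 (13.26 and 13.46), Nanog (12.84 and 13.27) and Sox2 (13.00 and 13.11) had bright log2 signals, as is known of ES cells. Of the 8 pluripotency markers 5 were lower with Ctr9 esiRNA (log2 differences of -1.10 for Esrrb, -0.91 for Klf4, -0.46 for Zfp42, -0.44 for Nanog and -0.20 for Pou5f1) and none was higher. The mean log2 signal of that list ran from 12.78 to 12.82 in Ctr9 esiRNA arrays and from 13.19 to 13.25 in luciferase arrays. The targeted gene was not clearly lower. On its brightest probe set Ctr9 read 10.09, 10.13, 10.13 and 10.07 in Ctr9 esiRNA arrays, against 10.12, 10.18, 10.21 and 10.26 in luciferase arrays, with overlap (difference -0.09, SE 0.047; two-sided exact permutation p = 0.0857, where 0.0286 is the smallest possible). Of its other 4 probe sets, 2 were lower (-0.15 and -0.18), with luciferase means of 9.43 and 9.19 and no overlap between groups. The remaining 2 were much dimmer, with luciferase means of 5.90 and 5.23. Of these, 1 was higher (0.29) and 1 did not pass (0.27). The array values therefore do not settle how far the Ctr9 transcript was lowered. Upper quartiles of the arrays ranged from 8.10 to 8.15 on the log2 scale. Of 8 trophectoderm markers 6 were higher in the Ctr9 esiRNA arrays, and the mean log2 signal of that list ran from 7.80 to 7.89 there and from 6.69 to 6.92 in the luciferase arrays. Its defining marker Cdx2 read 7.21 and 5.82 in the Ctr9 esiRNA and luciferase arrays, and Elf5 stayed dim at 4.23 and 4.18. Of 8 primitive endoderm markers 1 was higher, Foxa2, while the defining Gata6 (-0.12) and Sox17 (-0.24) did not pass. Of 8 feeder fibroblast markers 2 were higher, Col1a2 and Dcn, while the defining Col1a1 (0.05) and Thy1 (0.02) did not pass. Over all genes, 15.8% were called higher and 15.0% lower. None of the 6 measured erythroid markers passed the threshold in either direction, and of 5 measured oligodendrocyte markers Mbp alone did (0.23, SE 0.054, limma adjusted p = 0.0118). Red cells and oligodendrocytes are known for their carbonic anhydrases. The part that cells of another type have in the differences below was not tested, and in bulk RNA a change in the number of cells of a type cannot be told apart from a change in RNA per cell.

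RefSeq promoter windows (GRCm38.p6) were held for 6 of the 10 genes, and not for Car2, Car3, Car8 and Car13. The 3 shown belong to Car4, Car12 and Car14, the membrane enzymes among the 10 genes, and are given because their transcripts were higher with Ctr9 esiRNA. Each covers the 250 bases before the annotated start, written on the gene's strand. Capitals mark matches, on either strand, to the TATA box TATAAA, the CCAAT box CCAAT, the GC box GGGCGG, the core of the hypoxia response element ACGTG and the TEAD site GGAATG.
Car4, chr11:84957504-84957753, + strand: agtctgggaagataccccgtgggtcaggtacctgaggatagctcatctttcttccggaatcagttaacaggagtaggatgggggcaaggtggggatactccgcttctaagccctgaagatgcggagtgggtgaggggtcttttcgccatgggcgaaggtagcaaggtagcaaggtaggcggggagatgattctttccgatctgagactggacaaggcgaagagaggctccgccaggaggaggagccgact
Car12, chr9:66713436-66713685, + strand: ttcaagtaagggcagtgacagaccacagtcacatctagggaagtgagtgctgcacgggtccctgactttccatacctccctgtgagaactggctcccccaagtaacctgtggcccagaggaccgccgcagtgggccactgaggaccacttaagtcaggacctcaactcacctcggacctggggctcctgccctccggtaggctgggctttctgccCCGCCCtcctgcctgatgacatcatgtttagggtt
Car14, chr3:95904686-95904935, - strand: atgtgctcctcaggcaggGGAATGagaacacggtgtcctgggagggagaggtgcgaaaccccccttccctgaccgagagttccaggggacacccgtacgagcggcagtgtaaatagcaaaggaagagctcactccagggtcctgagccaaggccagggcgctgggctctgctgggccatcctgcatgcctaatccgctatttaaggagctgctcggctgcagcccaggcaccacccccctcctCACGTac
The Car4 window held none of these motifs. The Car12 window held 1 GC box, 35 to 30 bases before the start. The Car14 window held 1 TEAD site, 232 to 227 bases before the start, and 1 hypoxia response core, 7 to 3 bases before it. Among 32851 promoter windows of the same length, a TATA box was found in 12.4%, a CCAAT box in 33.8%, a GC box in 32.7%, the hypoxia core in 16.6% and the TEAD site in 12.6%. The 3 windows thus had no motif of this set in common. A match of letters says nothing of occupancy, and an absent match concerns only these letters and these bases.

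Read by the brightest probe set of each gene, 5 of the 10 genes passed the threshold of 0.05 on the adjusted p of the whole-array fit as higher with Ctr9 esiRNA (Car2, Car3, Car4, Car12 and Car14) and 1 as lower (Car8). Among all 18193 genes, 15.8% were called higher and 15.0% lower, or 30.8% in either direction. Since the genes were taken up with this contrast in view, nothing is read from that contrast of counts. The same 6 genes were those whose 4 and 4 array values did not overlap, which was so for 18.8% of all genes in the higher and 17.8% in the lower direction. The median difference of the 10 genes was 0.28 on the log2 scale, beside 0.0036 over all genes. Over the 23 probe sets, 7 were called higher and 3 lower, where 11.8% and 13.1% of all probe sets were, and the groups stood apart without overlap for 7 higher and 2 lower ones, beside 13.7% and 14.9% of all probe sets. With the other 6 carbonic anhydrase genes added, 5 of 16 genes were called higher and 3 lower, at a median of 0.046.

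**Figure D1:**
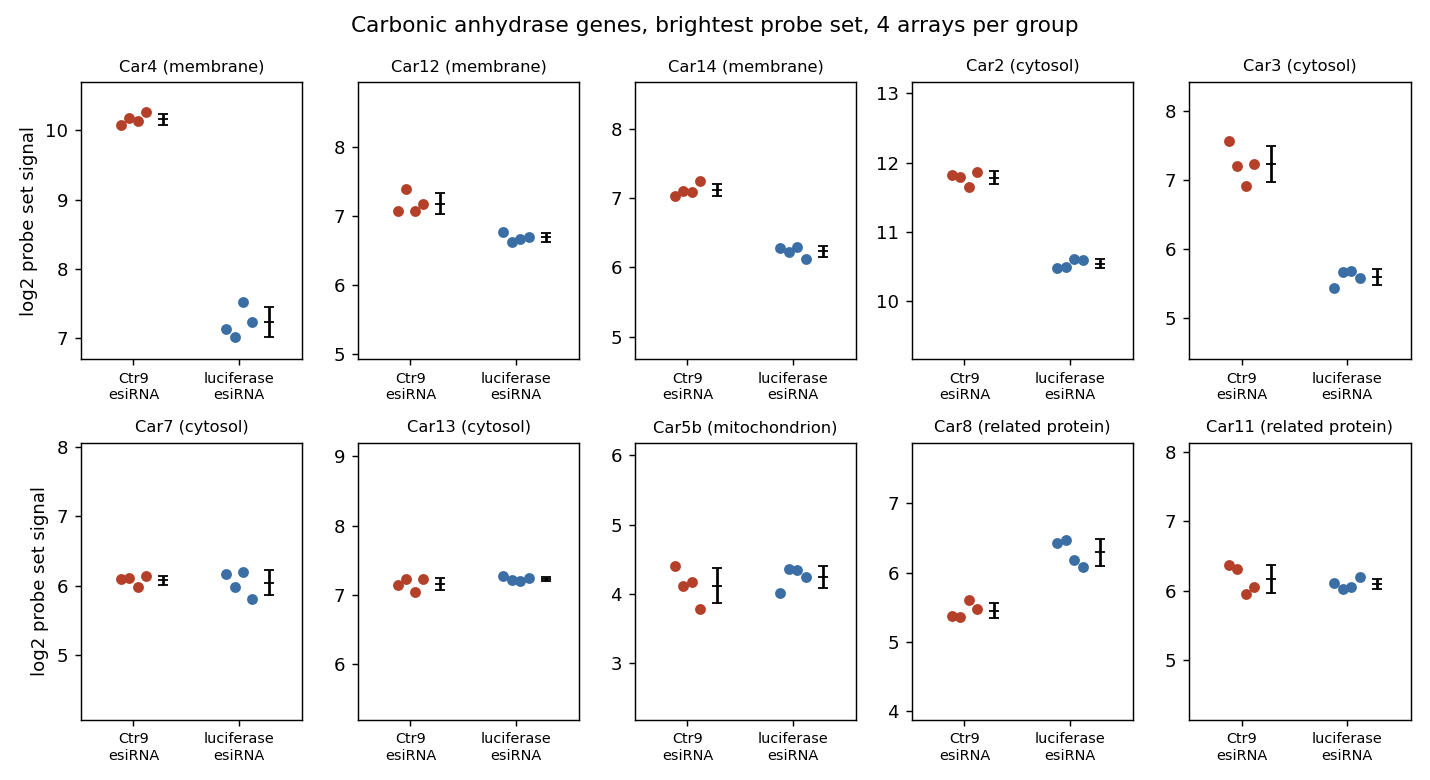
Log2 probe set signal of the 10 genes on each array, read by the brightest probe set; points are the 4 Ctr9 esiRNA arrays (left) and the 4 luciferase esiRNA arrays (right), bars are mean ± SD, and every panel spans 4 log2 units. The groups stand apart for Car4, Car12, Car14, Car2, Car3 and Car8 and overlap for Car7, Car13, Car5b and Car11.

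Car4, Car14 and Car12, the membrane-bound enzymes among the 10 genes, have their active site outside the cell, and each was higher with Ctr9 esiRNA in this comparison, from which they were chosen. Car4, the form held at the surface by a lipid anchor and known from lung capillaries and kidney, read 10.08, 10.17, 10.14 and 10.27 in Ctr9 esiRNA arrays, against 7.13, 7.01, 7.52 and 7.23 in luciferase arrays (1448949_at, log2 signal). Every Ctr9 esiRNA array lay well above every luciferase array, and the luciferase arrays differed among themselves more than the Ctr9 esiRNA arrays did, with replicate 3 the brightest of them. The difference was 2.94 (SE 0.097), or 7.66-fold, and ranked 1 among 18193 genes. Without any 1 of the 8 arrays it ran from 2.87 to 3.04.

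A second Car4 probe set gave nearly the same picture. Its signals were 9.93, 9.94, 9.86 and 9.84 in Ctr9 esiRNA arrays, against 7.00, 7.12, 7.24 and 6.97 in luciferase arrays (1418094_s_at). The difference was 2.81 (SE 0.065), or 7.01-fold. Luciferase replicate 3 was again the brightest control array, so its higher signal was shared by both Car4 probe sets.

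Car14, a single-pass transmembrane enzyme known from kidney, liver, retina and brain, read 7.03, 7.11, 7.09 and 7.25 in Ctr9 esiRNA arrays, against 6.28, 6.23, 6.30 and 6.13 in luciferase arrays (1450725_s_at). The groups did not overlap and the spread within each was small, with SDs of 0.093 and 0.076. The difference was 0.89 (SE 0.061), or 1.85-fold, rank 240 among all genes. This gene had a single probe set.

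Car12, a transmembrane enzyme made in many epithelia and tumours, read 7.07, 7.39, 7.06 and 7.17 in Ctr9 esiRNA arrays, against 6.77, 6.62, 6.67 and 6.70 in luciferase arrays (1428485_at). The lowest Ctr9 esiRNA array lay above the highest luciferase array, and Ctr9 esiRNA replicate 2 stood highest. The difference was 0.49 (SE 0.075), or 1.4-fold. The other Car12 probe sets were dim, below the array median of 5.75. They differed by 0.10 (SE 0.056, 1447762_x_at) and -0.11 (SE 0.10, 1446517_at), and their groups overlapped. Averaging the 3 Car12 probe sets gave a difference of 0.16. The size for Car12 therefore depends on which probe sets are taken, and the sign differed between its dim ones.

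Among the cytosolic enzymes the genes divided. Car2, the highly active form of red cells, kidney and osteoclasts, read 11.81, 11.80, 11.65 and 11.87 in Ctr9 esiRNA arrays, against 10.47, 10.49, 10.61 and 10.59 in luciferase arrays (1448752_at). The gap between the groups was about 1 log2 unit at its narrowest, and no array of one group approached the other. The difference was 1.24 (SE 0.060), or 2.36-fold, rank 114 among all genes, and ran from 1.21 to 1.29 without any 1 array. Car2 had a single probe set, with bright signals in both groups.

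Car3, an isozyme of low activity that is abundant in muscle, liver and fat, read 7.57, 7.20, 6.92 and 7.24 in Ctr9 esiRNA arrays, against 5.43, 5.67, 5.69 and 5.58 in luciferase arrays (1449434_at). The groups did not overlap, and the Ctr9 esiRNA arrays spread more widely, with an SD of 0.265 beside 0.117. The difference was 1.64 (SE 0.119), or 3.11-fold, rank 40 among all genes. The luciferase values lay below the array median, where the authors' RMA step compresses differences, so the fold is uncertain.

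The remaining Car3 probe sets differed far less. One of them read 6.12, 6.22, 6.07 and 6.03 in Ctr9 esiRNA arrays, against 5.89, 5.62, 5.70 and 5.86 in luciferase arrays (1460256_at). Its groups did not overlap and its difference was 0.34 (SE 0.071). The dim probe sets 1430584_s_at and 1453588_at differed by 0.14 (SE 0.064) and 0.05 (SE 0.050), with overlapping groups. Averaging the 4 Car3 probe sets gave 0.54, so the direction held for each probe set and the size did not.

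Car7, a cytosolic enzyme best known from brain, read 6.10, 6.10, 5.98 and 6.13 in Ctr9 esiRNA arrays, against 6.17, 5.98, 6.20 and 5.81 in luciferase arrays (1443824_s_at). The groups overlapped throughout, and the difference was 0.04 (SE 0.085). Its other probe sets differed by 0.10 (SE 0.057, 1434973_at) and 0.11 (SE 0.092, 1452484_at), likewise with overlap. Car13, a cytosolic form found in several tissues, read 7.15, 7.22, 7.04 and 7.23 in Ctr9 esiRNA arrays, against 7.27, 7.21, 7.20 and 7.24 in luciferase arrays (1421307_at). The groups overlapped and the difference was -0.07 (SE 0.053). The other Car13 probe sets differed by -0.18 (SE 0.077, 1421308_at) and 0.03 (SE 0.070, 1439620_at) and did not pass either.

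In the mouse gene order, Car13, Car1, Car3 and Car2 stand next to each other on chromosome 3 with no other protein-coding gene between them. Within this run, Car3 and its neighbour Car2 were higher with Ctr9 esiRNA, while Car13 and Car1 did not pass. Car1, the abundant red cell isozyme, read 4.49, 4.34, 4.47 and 4.36 in Ctr9 esiRNA arrays, against 4.64, 4.26, 4.66 and 4.44 in luciferase arrays. These signals are dim and overlap, and the difference was -0.09 (SE 0.088, limma adjusted p = 0.532).

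Car5b is the mitochondrial form among the 10 genes and supplies bicarbonate inside the organelle. It read 4.40, 4.12, 4.17 and 3.79 in Ctr9 esiRNA arrays, against 4.01, 4.36, 4.34 and 4.24 in luciferase arrays (1419705_at). Both groups were dim and overlapped, and the difference was -0.12 (SE 0.122). The other probe set differed by -0.11 (SE 0.063, 1447928_at). Car5b is the gene whose brightest probe set lay below the array median, so 9 of the 10 genes were kept when dim probe sets were left out.

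The carbonic anhydrase-related proteins Car8 and Car11, which lack enzymatic activity, were not higher: Car8 was lower and Car11 did not pass. Car8, which in mouse cerebellum binds the inositol trisphosphate receptor and lowers its affinity for its ligand, read 5.38, 5.36, 5.60 and 5.47 in Ctr9 esiRNA arrays, against 6.43, 6.47, 6.18 and 6.08 in luciferase arrays (1427482_a_at). All Ctr9 esiRNA arrays were lower than all luciferase arrays, in which replicates 1 and 2 were brighter than 3 and 4. The difference was -0.84 (SE 0.094), a signal 1.79-fold lower, and ran from -0.91 to -0.78 without any 1 array.

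Both dimmer Car8 probe sets pointed the same way by smaller amounts. The first read 3.54, 3.54 and 3.54 in Ctr9 esiRNA replicates 1, 3 and 4, with replicate 2 empty in the deposited table, against 3.71, 3.71, 3.91 and 3.93 in luciferase arrays (1424958_at). Its difference was -0.27 (SE 0.069), fitted on the values left. The second differed by -0.18 (SE 0.057, 1457904_at), with overlapping groups. Both calls were fragile. The first ended without Ctr9 esiRNA replicate 1, 3 or 4, at differences that stayed at -0.27. The second ended without luciferase replicate 2, 3 or 4 or Ctr9 esiRNA replicate 1, 3 or 4, at differences of -0.18 to -0.15. Averaging the 3 Car8 probe sets gave -0.43.

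Car11, a secreted relative without activity that is known from brain, read 6.36, 6.31, 5.95 and 6.05 in Ctr9 esiRNA arrays, against 6.11, 6.02, 6.06 and 6.20 in luciferase arrays (1424379_at). Ctr9 esiRNA replicates 1 and 2 lay above all luciferase arrays and replicate 3 lay below all of them. The difference was 0.07 (SE 0.092).

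**Figure D2:**
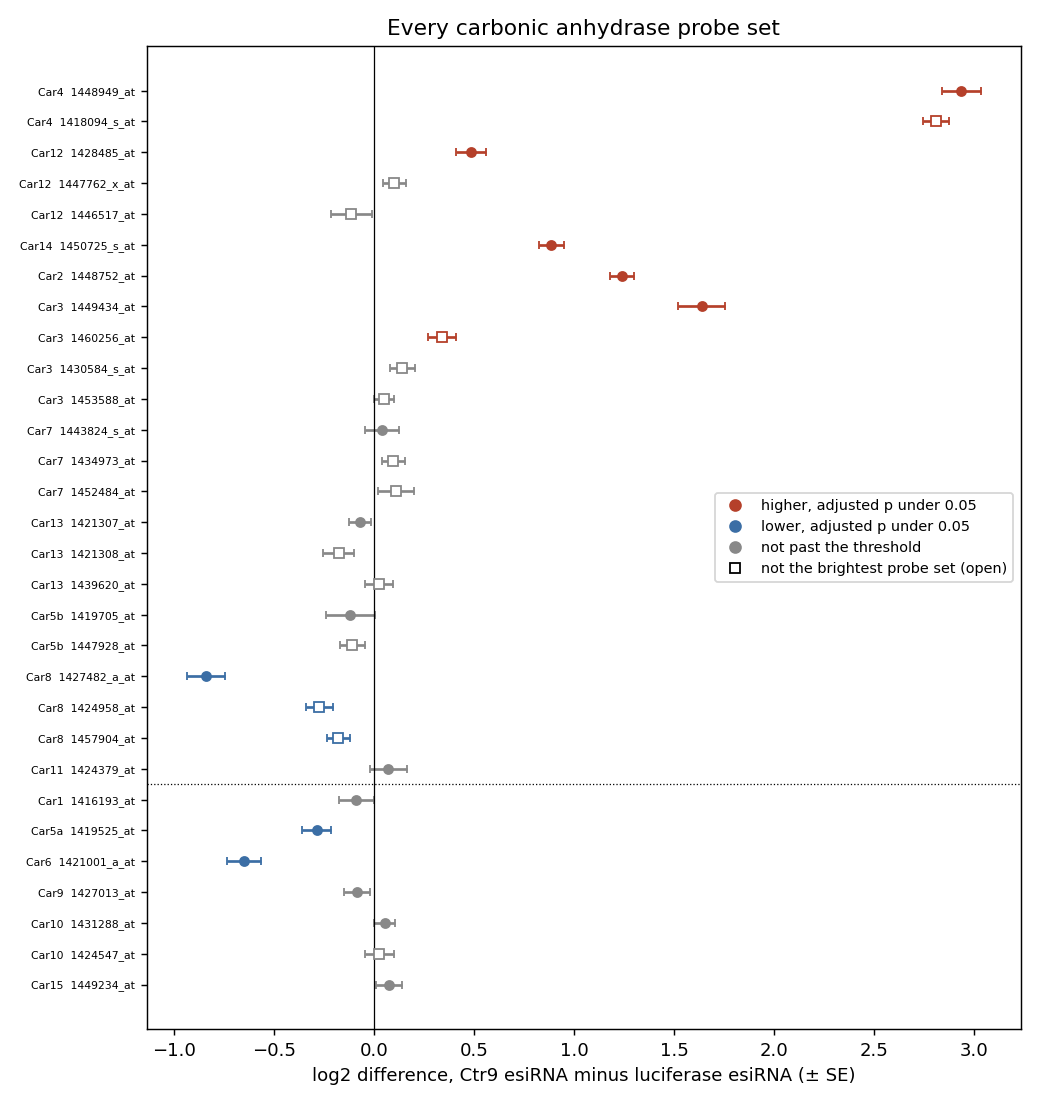
Log2 difference between Ctr9 esiRNA and luciferase esiRNA arrays (± limma SE) for each of the 23 probe sets of the 10 genes and, under the dotted line, the 7 probe sets of the 6 other carbonic anhydrase genes; filled circles are the brightest probe set of a gene and open squares its others. The Car4 probe sets lie at 2.94 and 2.81, while those of Car3 run from 0.05 to 1.64.

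The 6 carbonic anhydrase genes outside these 10 gave no increase that passed. Car6, the secreted form of saliva, fell by 0.65 (SE 0.085, limma adjusted p = 0.000321). It read 5.26, 5.57, 5.46 and 5.51 in Ctr9 esiRNA arrays, against 6.06, 6.28, 5.95 and 6.10 in luciferase arrays, with no overlap. Car5a, the liver form of the mitochondrial enzyme, fell by 0.29 (SE 0.073, limma adjusted p = 0.0153). It was dim, at 4.52 to 4.83 in Ctr9 esiRNA arrays against 4.96 to 5.11 in luciferase arrays, and without luciferase arrays 3 and 4 together it no longer passed (limma adjusted p = 0.126).

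The other 4 did not pass. Car9, the hypoxia-induced membrane enzyme, read 5.29 to 5.42 in Ctr9 esiRNA arrays and 5.35 to 5.58 in luciferase arrays, a difference of -0.09 (SE 0.063, limma adjusted p = 0.386). Car15, a membrane enzyme known from mouse kidney, differed by 0.07 (SE 0.067, limma adjusted p = 0.485). Car10, a relative without activity, differed by 0.05 (SE 0.053, limma adjusted p = 0.540), and Car1 is given above. Thus the surface enzymes Car4, Car12 and Car14 were higher while the surface enzymes Car9 and Car15 did not pass. No test compared them with each other.

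**Figure D3:**
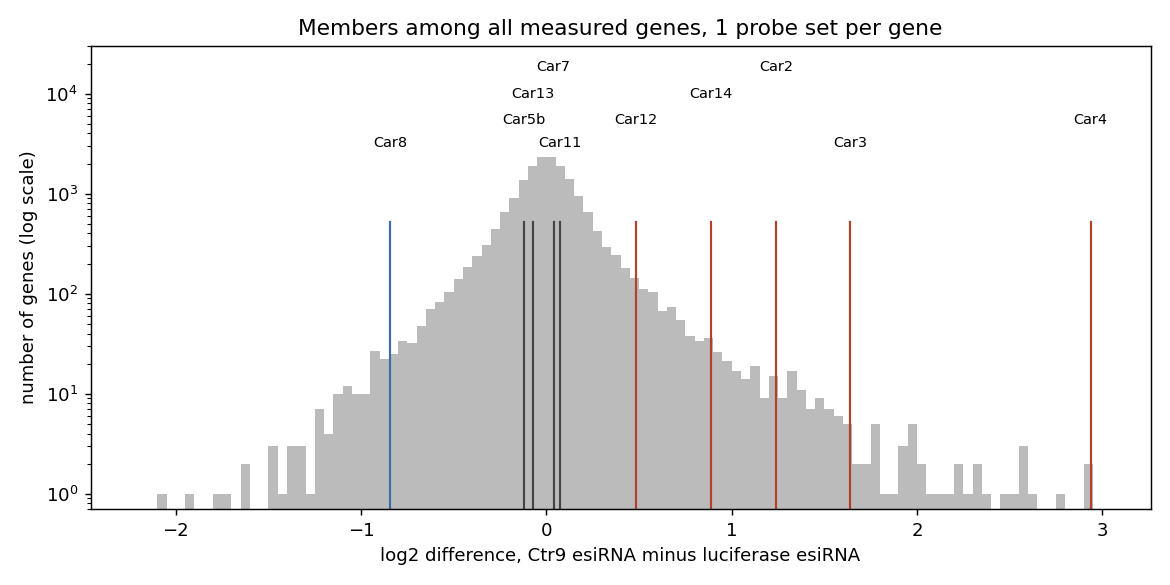
Number of genes (log scale) by log2 difference between Ctr9 esiRNA and luciferase esiRNA arrays, over 18193 genes each read by the brightest probe set, with the 10 carbonic anhydrase genes as vertical lines (red, called higher; blue, called lower; dark grey, not past the threshold). Car4 lies at the right end at 2.94, and Car5b, Car13, Car7 and Car11 lie in the central peak.

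Of the 10 genes, Car4 alone was compared with every other gene for its pattern over the 8 arrays. Among 18008 genes with all 8 values, the highest Pearson correlations with Car4 were those of Igf2, a fetal growth factor (r = 0.9991), Ptpn13, a protein tyrosine phosphatase (0.9989), Tpm1, a tropomyosin (0.9989), Rlim, a ubiquitin ligase (0.9988), and Psmb10, an immunoproteasome subunit (0.9984). All 5 were higher with Ctr9 esiRNA, by 2.79, 1.74, 1.21, 0.63 and 1.19. With 2 groups of arrays, any gene with a clean difference correlates highly, and 1025 genes had r above 0.95, so the order among them rests on small deviations.

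Genes that work beside the enzymes were read from 7 lists with 62 measured genes. In all, 8 passed as higher and 18 as lower, where 15.8% and 15.0% of all genes did. The median over these genes was -0.039. The following lists are described by their counts, and no test set 1 list against another.

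Monocarboxylate transporters and their chaperones were higher in 3 of 6 cases, with none lower, at a median of 0.26. Slc16a3, the lactate exporter of glycolytic cells, read 9.74, 9.57, 9.36 and 9.34 in Ctr9 esiRNA arrays, against 8.55, 8.19, 7.99 and 8.09 in luciferase arrays. The groups did not overlap, and Slc16a3 rose by 1.30 (SE 0.126, limma adjusted p = 4.6e-05). Emb, the chaperone embigin, rose by 1.01 (SE 0.046, limma adjusted p = 3.75e-07), and Slc16a1, the widely expressed lactate and pyruvate transporter, rose by 0.35 (SE 0.050, limma adjusted p = 0.000535). Less bright probe sets differed less: one of Emb differed by 0.15 and the other by 0.88, and the second Slc16a1 probe set differed by 0.084.

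Bicarbonate-using enzymes went the other way, with 6 of 10 lower and none higher, at a median of -0.22. Pccb, a subunit of the mitochondrial propionyl-CoA carboxylase, read 8.32, 8.52, 8.32 and 8.40 in Ctr9 esiRNA arrays, against 9.03, 9.14, 9.11 and 9.14 in luciferase arrays. The groups were far apart, and Pccb fell by 0.72 (SE 0.057, limma adjusted p = 1.25e-05). Mccc1, of the leucine-degrading carboxylase, fell by 0.37 (SE 0.049, limma adjusted p = 0.000321). Cps1, the ammonia-fixing enzyme of the urea cycle, was dim and fell by 0.41 (SE 0.075, limma adjusted p = 0.00242). Pcx, the pyruvate carboxylase that mitochondrial carbonic anhydrases are known to supply, fell by 0.25 (SE 0.054, limma adjusted p = 0.00591). Pcx, Acacb (-0.22, SE 0.050) and Pcca (-0.22, SE 0.064) complete the 6, and were named after their values were seen. The less bright probe sets of Acacb and Pcca differed by 0.0058 and -0.20.

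Subunits of the V-type proton pump, which acidifies endosomes and lysosomes, were lower in 9 of 21 cases and higher in 1, at a median of -0.11. Atp6v1a, the catalytic subunit, fell by 0.36 (SE 0.053, limma adjusted p = 0.000692). The accessory subunits Atp6ap2 and Atp6ap1 fell by 0.33 (SE 0.046, limma adjusted p = 0.000473) and 0.24 (SE 0.044, limma adjusted p = 0.00302). The member that rose was Atp6v0e (0.22, SE 0.048, limma adjusted p = 0.00729), named after its value was seen.

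Of 13 measured bicarbonate transporters, 2 rose and 2 fell, at a median of -0.056. These counts lie near the shares of all genes, 15.8% higher and 15.0% lower, and nothing is read from them. Slc4a4, the electrogenic sodium-bicarbonate cotransporter, rose by 0.43 (SE 0.088, limma adjusted p = 0.00491), with signals of 5.93 to 6.18 in Ctr9 esiRNA arrays against 5.42 to 5.79 in luciferase arrays. Its less bright probe sets differed by 0.037 to 0.30. Slc26a7, a dim anion exchanger, rose by 0.35 (SE 0.080, limma adjusted p = 0.00901), while a second Slc26a7 probe set differed by -0.063. The members that fell were dim: Slc4a10 by 0.27 (SE 0.060, limma adjusted p = 0.00798), a call that ended without luciferase arrays 1 and 2 (0.0654), and the anion exchanger Slc4a1 by 0.25 (SE 0.068, limma adjusted p = 0.0203), which was named after its value was seen.

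Among 8 measured genes of the sodium-proton exchanger list, 1 rose and none fell, where 15.8% and 15.0% of all genes did. That gene, Slc9a3r1, is no exchanger but the scaffold that anchors one at the apical membrane. It read 10.97, 10.88, 10.81 and 10.95 in Ctr9 esiRNA arrays, against 10.07, 10.12, 10.02 and 10.10 in luciferase arrays, a rise of 0.83 (SE 0.051, limma adjusted p = 2.6e-06), with 0.89 and 0.93 on its other probe sets. None of the 7 exchangers themselves passed on its brightest probe set. For Slc9a8, that probe set differed by -0.13 and the less bright ones by -0.46 to -0.015. Ptprg, a receptor phosphatase with a carbonic anhydrase-like outer domain, rose by 0.41 (SE 0.052, limma adjusted p = 0.000259), and its less bright probe sets differed by 0.028 to 0.31. The related Ptprz1 differed by -0.20 without passing (limma adjusted p = 0.0744).

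Of the inositol trisphosphate receptors, Itpr3 fell by 0.47 (SE 0.052, limma adjusted p = 0.000111), reading 8.44, 8.64, 8.60 and 8.55 in Ctr9 esiRNA arrays, against 9.03, 9.03, 9.02 and 9.02 in luciferase arrays. Itpr2 differed by -0.02 (limma adjusted p = 0.895). Itpr1, the receptor known to be bound by Car8 in mouse cerebellum, was not analysed here, since no probe set carried its symbol alone.

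**Figure D4:**
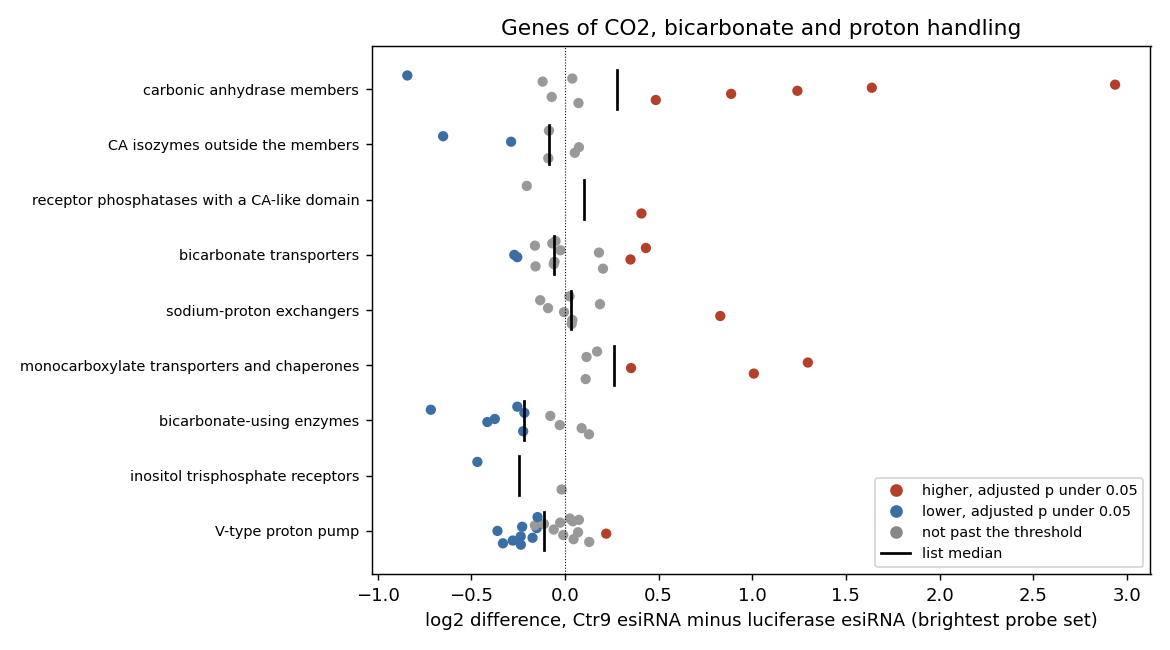
Log2 difference between Ctr9 esiRNA and luciferase esiRNA arrays for each gene of the 10 carbonic anhydrase genes, the other carbonic anhydrases and the 7 lists of genes that work beside them; each point is a gene's brightest probe set and the vertical bar is the list median. The points of the monocarboxylate list lie from 0.11 to 1.30, and those of the bicarbonate-using enzymes from -0.72 to 0.13.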

How the data were processed

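RNA of 8 samples of mouse ES cells was measured on Affymetrix arrays, 4 per group. Signals were deposited on the log2 scale, made by the authors with GCOS 1.4 and RMA, per the submitters' processing notes; their settings were not stated there. The values were used as deposited. The table holds 45101 probe sets, of which 64 controls were left out. The platform annotation gave 1 symbol to 34945 of the rest and several to 932, and left 9160 unnamed. Through Entrez IDs, 34741 probe sets matched the GRCm38.p6 gene table. Each gene's brightest 1-symbol probe set (by mean over all arrays) stood for it, and every other probe set of the 10 genes is given too. Those whose names hold _s_ or _x_ can share probes with other transcripts. Groups were compared over all 45037 probe sets with limma 3.58.1 in R 4.3.3 (lmFit, eBayes, Benjamini-Hochberg adjustment, threshold 0.05), and SE is limma's moderated standard error. Among them 456 values are empty, and the fit used the values left. No label names separate cultures, so a p-value here reflects no more than the variation among these 8 samples, which may be technical. Precision is limited by how few arrays there are.

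The members, gene lists and rules for naming were chosen with earlier results of these data known. By rule, all carbonic anhydrase genes, Ctr9, the defining markers and the 5 genes most correlated with Car4 are named. So are up to 3 genes per list with the smallest adjusted p among those that passed. Outside this rule, Esrrb, Klf4, Zfp42, Foxa2, Col1a2, Dcn, Slc9a8, Ptprz1 and Itpr2 are also named. The same holds for the genes marked above as named after their values were seen. Listed genes without a probe set of their own symbol alone were not analysed here. Promoters are RefSeq's. In simulated arrays of the same 45037 probe sets for Ctr9 against luciferase esiRNA, 200 were changed. There the fit found 96% of changes of 1 log2 unit, 76% at 0.5, 26% at 0.3 and 4% at 0.2, with 2 false calls among 103. In the data 24.9% of probe sets passed, so the adjusted cut was less strict than in the simulation and these rates do not carry over. Alternatives were other scalings, filters on dim probe sets, array weights, a robust trended prior and a block for replicate number. Others were complete probe sets, a threshold of 0.01 and averaging the probe sets of each gene. Arrays were also left out singly, and luciferase arrays 1 and 2, or 3 and 4, were left out together. No pair of Ctr9 esiRNA arrays was left out. Figures were drawn with matplotlib 3.10.9.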

Additional observations from a re-analysis of the deposited data

Results flagged for a closer look

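Among 91 groups of 4 arrays read for the named genes, 2 held an array far from the other 3, where chance gives about 1 in 20. Car5a read 4.52 in Ctr9 esiRNA replicate 2, and the nearest Ctr9 esiRNA array read 4.79. The dimmer Car5b probe set, 1447928_at, read 3.73 in luciferase replicate 2, and the nearest luciferase array read 3.88. Both are dim probe sets.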

How the results depend on the processing

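The counts of 5 higher and 1 lower among the 10 genes held under all 21 alternatives. So did the call, or lack of a call, of each brightest probe set wherever an alternative retained it (208 values). All alternatives used the same arrays from which the genes were chosen, so the calls that held are no independent support for them. The direction held for each called gene. A small difference without a call could change sign: that of Car7 ran from -0.04 to 0.09 when 1 array was left out. At a threshold of 0.01, 3389 probe sets were higher and 3611 lower in the whole array, against 5304 and 5905 at 0.05, by construction. Leaving out 1 array gave 4539 to 4839 higher and 4902 to 5296 lower probe sets, and 8 to 9 higher and 15 to 18 lower genes beside the enzymes, the 6 other carbonic anhydrases included, against 8 and 20. The mean over the Ctr9 probe sets differed by 0.027, against -0.09 on the brightest. That mean also holds the other bright probe sets, at -0.15 and -0.18, and the much dimmer ones, at 0.29 and 0.27. Its positive sign thus comes from the dimmer Ctr9 probe sets. Why the dimmer and brighter ones differ in direction was not tested. No label says that replicate numbers pair the samples. Deviations of same-numbered arrays correlated at 0.060, -0.077, 0.062 and -0.067, and 2 of the 4 numbers correlated best with their own. Such correlations cannot settle whether samples were handled in pairs. With the replicate block, 4606 probe sets were higher and 5165 lower, with 5 and 1 among the 10 genes. The Car8 probe set 1457904_at lost its call under 12 alternatives and 1424958_at under 5. Array number and dim signals, which RMA compresses, limit the sizes for Car3, Car5b and Car8. For Car12 only the brightest probe set was called, and the dim Car12 probe sets differed in sign.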
